A study of Mus musculus with 16 samples.

Results

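The 35 genes described here drive cells through DNA replication and mitosis. They were chosen by name, and a gene was measured by the array probe sets that the platform annotation pairs with its symbol alone. Of the 35 genes, 34 had such probe sets, 696 in all, out of 21634 gene symbols on the array. Ccnb1, a B-type cyclin, had none, and Rrm2 had 1, under the 3 probe sets required for a test, so 33 of 19447 tested genes belong to this group. Symbols are those of the platform annotation, in which Cdk1 still carries its older name Cdc2a.

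A cell that is going to divide passes a commitment step in G1 governed by D-type and E-type cyclins, loads the MCM helicase on replication origins, copies its DNA, and then builds a spindle that separates the chromosomes under the control of Cdk1, the Aurora and Polo kinases and the spindle checkpoint. In the embryonic nervous system these genes are transcribed in dividing progenitors, among them radial glia, intermediate progenitors and glial precursors, while postmitotic neurons keep most of them low. Blood, vascular, immune and connective tissue cells that divide transcribe the same genes.

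The study used E18.5 embryos of the outbred CD1 mouse stock without Nova1 and Nova2, which encode splicing regulators of neurons that bind RNA, and wild type embryos. The 4 groups were Nova1/2 double knockout (dKO) spinal cord, wild type (WT) spinal cord, dKO brain and WT brain, with 4 arrays each and 1 array for each biological replicate. Whole brains and whole spinal cords were used, and the labels name no promoter, Cre line or treatment. Levels are given as log2(intensity + 16), with the level of a gene taken as the median over its probe sets on an array, so that a difference of 1 is close to 2-fold for a bright gene and understates the change of a dim one.

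Nova1, which was targeted, had a mean level of 5.85 in dKO cords against 11.09 in WT cords, and 5.11 in dKO brains against 10.24 in WT brains. Nova2 fell by 1.14 in dKO cords and by 0.75 in dKO brains, and which of its probe sets lie in the targeted part was not used here. The median intensity of an array lay between 99.5 and 116.2 in cords and between 72.3 and 82.9 in brains. Skeletal muscle genes were high on dKO cord arrays 2 and 4 and on WT cord arrays 1 and 4, with mean levels over 12 genes of 8.60, 8.05, 9.25 and 8.41, against 6.61 to 6.87 on the other cord arrays and 6.23 to 6.39 in brains. Telencephalon genes were low on brain array 3 of both genotypes, at 7.91 in the dKO and 6.96 in WT over 8 genes, against 8.78 to 9.04 on the other brain arrays.

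Promoter letters were not used to choose the genes. RefSeq promoters of build GRCm38.p6 were available for 28 of the 35 genes, and the 250 bases before each start were searched on both strands. The CCAAT box, the letters CCAAT, which the factor NF-Y binds, stood in 23 of the 28 (82.1%) against 34.5% of 27025 promoters. The letters TTTGAA, known in mitotic promoters as the cell cycle homology region, which the DREAM and MuvB complexes bind, stood in 7 (25.0%) against 16.3%, namely those of Mcm2, Cdc2a, Ccnb2, Cdc20, Kif11, Top2a and Mki67. An E2F site, given as TTTCCCGC, TTTCGCGC, TTTGCCGC or TTTGGCGC, stood in 5 (17.9%) against 1.91%, namely those of Cdc6, Mcm5, Mcm6, Mcm7 and Cdc2a. The 150 bases before the start are shown, with every match in capitals, for 4 genes whose cord and brain arrays did not overlap in either genotype: a topoisomerase, the mitotic kinases Cdk1 and Plk1, and a helicase subunit. Matches on the other strand appear as their reverse complement, and in Mcm6 a pair of E2F matches overlap. A match is a description of these letters and not of binding.
Top2a, chr11:99024190-99024339, minus strand: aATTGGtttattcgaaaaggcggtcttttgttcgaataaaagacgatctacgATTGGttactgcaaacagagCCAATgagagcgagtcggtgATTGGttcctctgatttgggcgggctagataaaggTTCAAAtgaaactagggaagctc
Cdc2a (Cdk1), chr10:69352913-69353062, minus strand: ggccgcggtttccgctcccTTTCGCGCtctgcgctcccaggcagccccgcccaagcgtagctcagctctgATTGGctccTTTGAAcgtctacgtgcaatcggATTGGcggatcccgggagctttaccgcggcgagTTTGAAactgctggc
Plk1, chr7:122159285-122159434, plus strand: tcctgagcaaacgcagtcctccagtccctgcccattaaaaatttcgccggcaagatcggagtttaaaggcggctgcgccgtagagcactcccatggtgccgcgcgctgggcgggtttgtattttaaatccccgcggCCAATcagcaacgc
Mcm6, chr1:128359706-128359855, minus strand: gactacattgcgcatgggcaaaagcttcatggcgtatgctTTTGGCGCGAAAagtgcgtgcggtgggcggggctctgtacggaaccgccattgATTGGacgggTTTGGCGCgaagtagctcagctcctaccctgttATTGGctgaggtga

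All 33 tested genes had a lower mean level in the spinal cord than in the brain, in dKO and in WT embryos. Of all 19447 tested genes, 10485 had a lower mean in the cord in the dKO and 9690 in WT. In the dKO, 27 of 33 passed an adjusted p of 0.05 (limma, Benjamini-Hochberg over 19447 genes) and were lower, and in WT 26 of 33. Of all tested genes, 33.5% were called lower in the dKO comparison and 27.5% in the WT comparison. The median difference of the 33 genes was -0.51 in the dKO and -0.52 in WT, against -0.06 and 0.00 over all tested genes. Of the 33 genes, 25 passed in both genotypes, Cdc6 and Cdt1 passed in the dKO only, Tpx2 passed in WT only, and Ccne2, Ccnb2, Cdc20, Birc5 and Cenpe passed in neither. Whether those calls differ between genotypes is the test of the interaction given further on, which called none of the 33. In tissue RNA, fewer dividing cells and less RNA of these genes per cell cannot be told apart.

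**Figure D1:**
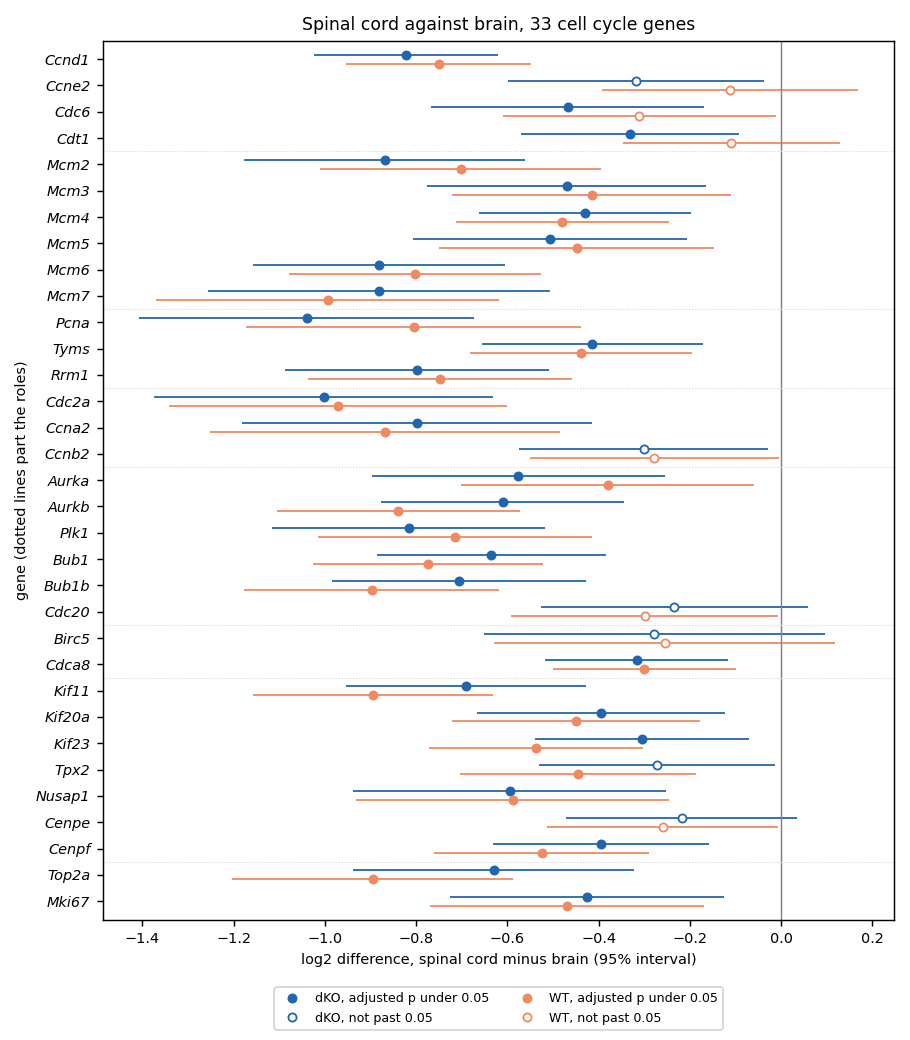
Difference between spinal cord and brain for the 33 tested genes, on the log2(intensity + 16) scale with 95% intervals, dKO above WT for each gene. Filled points passed an adjusted p of 0.05; every point lies left of 0, between -1.04 and -0.11.

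Calls of lower genes were more frequent among bright genes of any function. Among the 12204 genes with a mean level above 6.73, the median of all probe sets, 52.6% were called lower in the dKO and 44.0% in WT, with medians of -0.31 and -0.23. The 27 cell cycle genes in that range included 25 called lower in the dKO and 24 in WT, with medians of -0.58 and -0.54. After quantile normalization between arrays all 33 genes were called lower in both genotypes, the medians were -0.75 and -0.70, and the medians of all genes were -0.23 and -0.16. The share of all tested genes called lower was then 43.0% in the dKO and 34.0% in WT. That scaling also changed the balance of all calls, of which 11.1% in the dKO and 16.5% in WT were higher in the cord, against 40.1% and 43.8% on the deposited scale.

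**Figure D2:**
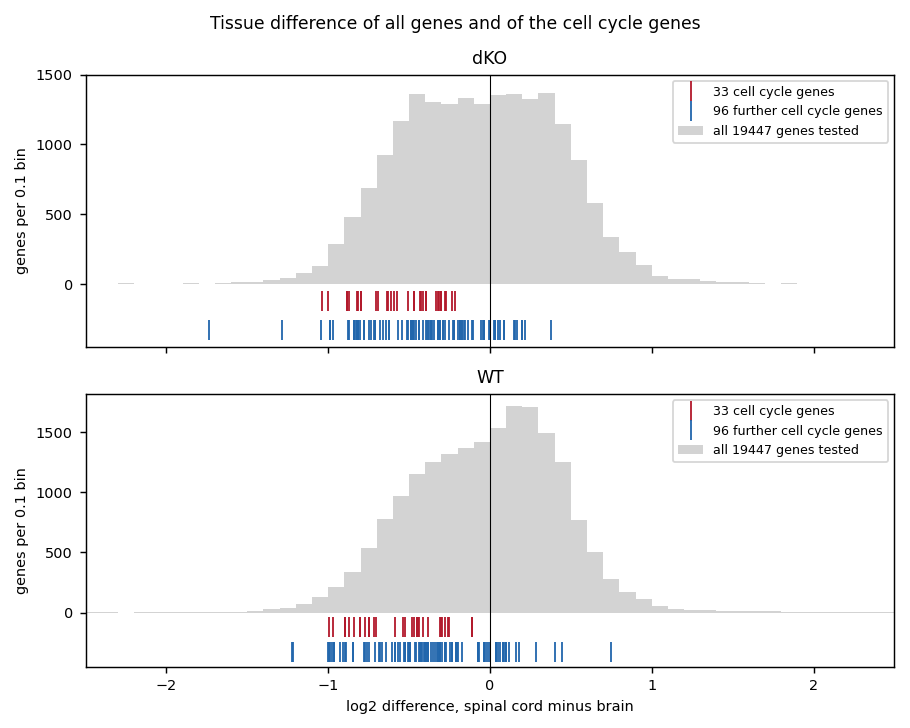
Number of genes per 0.1 bin of the difference between spinal cord and brain for all 19447 tested genes (grey), dKO above WT, with ticks for the 33 genes described (red) and for 96 further cell cycle genes (blue). Every red tick lies left of 0, and 82 of 96 blue ticks do so in the dKO and 79 of 96 in WT. Of all 19447 genes, 10485 had a negative difference in the dKO and 9690 in WT.

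Ccnd1, cyclin D1, which activates Cdk4 and Cdk6 in G1, had the lowest adjusted p of the 33 genes in both genotypes. Its level was 8.21, 8.39, 8.15 and 8.30 in dKO cords against 9.13, 9.01, 9.11 and 9.10 in dKO brains. In WT it was 8.62, 8.47, 8.29 and 8.48 in cords against 9.31, 9.07, 9.19 and 9.29 in brains. No cord array reached a brain array, and the difference was -0.82 (95% interval -1.03 to -0.62, adjusted p = 8.16e-06) in the dKO and -0.75 (-0.95 to -0.55, adjusted p = 1.89e-05) in WT. The licensing factors Cdc6 and Cdt1, which load the MCM helicase on origins, differed less. Cdc6 averaged 6.44 ± 0.18 in dKO cords and 6.91 ± 0.26 in dKO brains (SD, n = 4 each), a difference of -0.47 (adjusted p = 0.0102), and its WT difference of -0.31 did not pass (adjusted p = 0.0783). Cdt1 averaged 7.30 ± 0.09 in dKO cords and 7.63 ± 0.10 in dKO brains, a difference of -0.33 (adjusted p = 0.0197), against -0.11 (adjusted p = 0.438) in WT, where the arrays of both tissues overlapped. The dKO call of Cdt1 was lost under 5 of 23 alternatives (highest adjusted p = 0.119), among them leaving out dKO brain array 2 or dKO cord array 3. Ccne2, an E-type cyclin that partners Cdk2 at the start of S phase, lay at -0.32 (adjusted p = 0.0508) in the dKO and -0.11 (adjusted p = 0.502) in WT, with all 4 group means under the 6.73 median of the array.

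The MCM genes encode the 6 subunits of the replicative helicase, and all 6 were called lower in the cord in both genotypes. Mcm7 lay at 8.69, 8.85, 8.65 and 8.87 in dKO cords against 9.76, 9.77, 9.40 and 9.64 in dKO brains. In WT it lay at 8.87, 8.53, 8.35 and 8.33 in cords against 9.69, 9.89, 8.83 and 9.64 in brains. The dKO tissues were apart, while WT brain array 3, at 8.83, lay just below the highest WT cord array, and the differences were -0.88 (adjusted p = 0.000628) and -0.99 (adjusted p = 0.000309). Mcm6 averaged 8.14 ± 0.17 in dKO cords and 9.02 ± 0.18 in dKO brains, and 8.14 ± 0.18 in WT cords and 8.94 ± 0.22 in WT brains, with no overlap between tissues. Mcm2 was lower, with a difference of -0.87 in the dKO and -0.70 in WT. The smallest differences of the helicase were those of Mcm4, -0.43 in the dKO and -0.48 in WT, of Mcm3, -0.47 and -0.42, and of Mcm5, -0.51 and -0.45. In WT the call of Mcm3 was lost without brain array 1 or 2, cord array 3 or 4, or the 4 muscle-rich cord arrays (highest adjusted p = 0.0894), and that of Mcm5 without brain array 2, cord array 4 or those 4 arrays (highest adjusted p = 0.115). Promoters of Mcm5, Mcm6 and Mcm7 held an E2F match and that of Mcm2 a TTTGAA match.

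**Figure D3:**
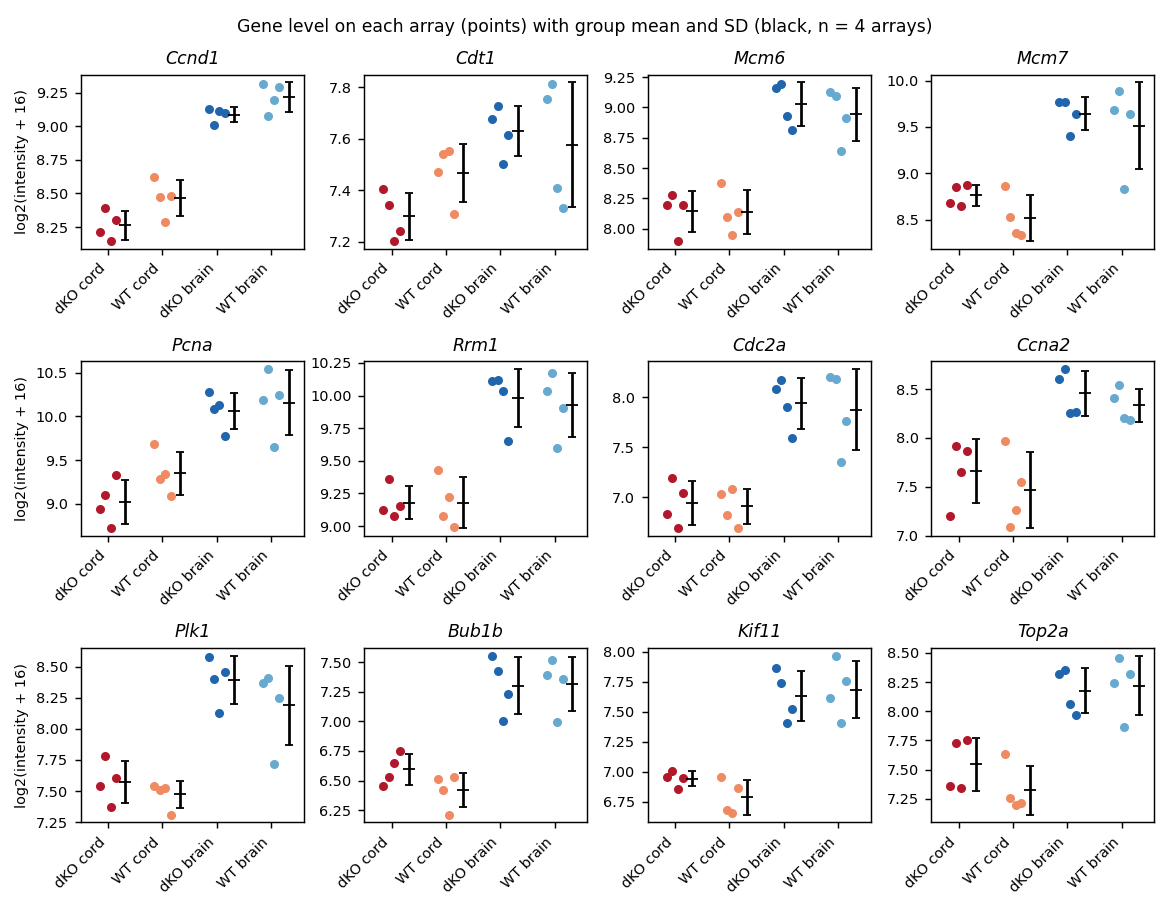
Level of 12 of the genes on each array, as log2(intensity + 16), for dKO cord, WT cord, dKO brain and WT brain, with the group mean and SD in black (n = 4 arrays). Each panel has its own axis, and in each the cord means lie below the brain means, by 0.11 for Cdt1 in WT and by 1.04 for Pcna in the dKO.

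Of the genes that make or place nucleotides, Pcna, the sliding clamp of the replicative polymerases, had the largest difference of all 33 genes in the dKO. Pcna lay at 8.94, 9.10, 8.73 and 9.33 in dKO cords against 10.27, 10.08, 10.12 and 9.78 in dKO brains. In WT it lay at 9.69, 9.28, 9.34 and 9.09 in cords against 10.19, 10.54, 9.65 and 10.25 in brains. The difference was -1.04 (-1.41 to -0.67, adjusted p = 0.000143) in the dKO, where no arrays overlapped, and -0.81 (-1.17 to -0.44, adjusted p = 0.00130) in WT, where brain array 3 lay below cord array 1. Rrm1, the large subunit of ribonucleotide reductase, which makes deoxynucleotides, averaged 9.18 ± 0.13 in dKO cords and 9.98 ± 0.22 in dKO brains, and 9.18 ± 0.19 in WT cords and 9.93 ± 0.24 in WT brains, and its tissues did not overlap in either genotype. Rrm2, the small subunit, was measured by its single probe set at 5.18 to 6.0 in dKO cords against 4.67 to 5.43 in dKO brains, and at 5.50 to 6.09 in WT cords against 5.33 to 5.71 in WT brains, all below the array's median of 6.73 and with no test.

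Tyms, thymidylate synthase, which makes the thymidine nucleotide, was called lower over its 15 probe sets, with differences of -0.41 (adjusted p = 0.00604) in the dKO and -0.44 (adjusted p = 0.00504) in WT. Its probe sets disagreed. Over the 9 above the 6.73 median the dKO call turned round to 0.39 (adjusted p = 0.0406), and the WT difference became -0.08 (adjusted p = 0.698). Probe set 4666824 was higher in dKO cords, at 8.62 against 7.33 in dKO brains, while probe set 5554020 was lower, at 6.64 against 7.57. The direction for Tyms therefore depends on which probe sets are read.

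Cdc2a, the kinase Cdk1 that drives entry into mitosis, had levels of 6.83, 7.19, 6.69 and 7.04 in dKO cords against 8.09, 8.17, 7.91 and 7.59 in dKO brains. In WT they were 7.03, 6.82, 7.08 and 6.69 in cords against 8.20, 8.19, 7.35 and 7.77 in brains. Both genotypes showed a gap between the tissues, with differences of -1.0 (-1.37 to -0.63, adjusted p = 0.000209) in the dKO and -0.97 (-1.34 to -0.60, adjusted p = 0.000340) in WT. Its S and G2 partner Ccna2, cyclin A2, lay at 7.20, 7.92, 7.65 and 7.87 in dKO cords against 8.60, 8.70, 8.26 and 8.26 in dKO brains, and at 7.97, 7.09, 7.26 and 7.55 in WT cords against 8.41, 8.54, 8.21 and 8.19 in WT brains. The cord arrays of Ccna2 were spread more widely than its brain arrays, and the differences were -0.80 (adjusted p = 0.00158) and -0.87 (adjusted p = 0.00105). Ccnb2, a B-type cyclin of mitosis, differed by -0.30 (adjusted p = 0.0566) in the dKO and -0.28 (adjusted p = 0.0845) in WT and passed in neither.

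Among the 6 mitotic kinases, checkpoint proteins and the activator of the anaphase-promoting complex, 5 were called lower in both genotypes. Plk1, Polo-like kinase 1, lay at 7.54, 7.78, 7.37 and 7.60 in dKO cords against 8.58, 8.40, 8.12 and 8.46 in dKO brains, and at 7.54, 7.51, 7.53 and 7.31 in WT cords against 8.37, 8.41, 7.72 and 8.25 in WT brains. Within each genotype the cord arrays of Plk1 lay below the brain arrays, with differences of -0.82 (adjusted p = 0.000195) in the dKO and -0.72 (adjusted p = 0.000691) in WT. Over its probe sets above the 75th percentile of all, Plk1 was not called in either genotype, at -0.22 (adjusted p = 0.263) in the dKO and -0.35 (adjusted p = 0.0817) in WT. Bub1b, the checkpoint protein BubR1, had mean levels of 6.60 ± 0.13 in dKO cords and 7.30 ± 0.24 in dKO brains, and of 6.42 ± 0.14 in WT cords and 7.32 ± 0.23 in WT brains. Bub1, the checkpoint kinase at kinetochores, was also lower, at -0.64 in the dKO and -0.77 in WT, and Aurkb, the Aurora kinase of the chromosomal passenger complex, by -0.61 and -0.84. Aurka, the Aurora kinase of centrosomes and spindle poles, was lower, with a difference of -0.58 (adjusted p = 0.00434) in the dKO and -0.38 (adjusted p = 0.0475) in WT, where brain array 3, at 7.28, lay below every cord array. The WT call of Aurka was lost under 11 of 23 alternatives (highest adjusted p = 0.192), among them median centring, the mean over probe sets, and leaving out WT brain array 1, 2 or 4 or WT cord array 1, 3 or 4. Its dKO call was lost with the mean over probe sets (adjusted p = 0.0554). Cdc20, which activates the anaphase-promoting complex, lay at -0.23 (adjusted p = 0.159) and -0.30 (adjusted p = 0.0832).

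Of the passenger complex, whose kinase is Aurkb, borealin and survivin belong to the 35 genes. Cdca8, borealin, was called lower, at -0.32 (adjusted p = 0.00974) in the dKO and -0.30 (adjusted p = 0.0154) in WT, though over its brightest probe sets, those above the 75th percentile of all, it lay at 0.21 in the dKO (adjusted p = 0.274) and 0.047 in WT (adjusted p = 0.818). Birc5, survivin, had its group means under 6.73 and differences of -0.28 (adjusted p = 0.190) in the dKO and -0.26 (adjusted p = 0.241) in WT.

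Of 7 spindle and kinetochore genes, 5 were called lower in the dKO and 6 in WT. Kif11, the kinesin that pushes spindle poles apart, lay at 6.95, 7.0, 6.86 and 6.95 in dKO cords against 7.86, 7.74, 7.40 and 7.52 in dKO brains, and at 6.96, 6.68, 6.65 and 6.87 in WT cords against 7.61, 7.96, 7.41 and 7.76 in WT brains. The tissues were apart in both genotypes, with differences of -0.69 (adjusted p = 0.000264) and -0.89 (adjusted p = 4.08e-05). Nusap1, a spindle microtubule-binding protein, was lower in each genotype, with a difference of -0.59, Kif20a, a motor of the central spindle, had differences of -0.39 in the dKO and -0.45 in WT, and Cenpf, a kinetochore protein, of -0.39 and -0.52. Over probe sets above the 75th percentile Cenpf was not called, at -0.079 (adjusted p = 0.515) in the dKO and -0.10 (adjusted p = 0.396) in WT, and over probe sets above the median Nusap1 was not called in WT, at -0.24 (adjusted p = 0.0971). The calls of Kif20a were lost without dKO brain array 2 or dKO cord array 1 in the dKO, and without the 4 muscle-rich cord arrays in WT. Kif23, a motor of the central spindle needed for cytokinesis, was lower, at -0.31 (adjusted p = 0.0274) in the dKO, with overlapping arrays, and at -0.54 (adjusted p = 0.000944) in WT. Its dKO call was lost under 8 of 23 alternatives (highest adjusted p = 0.0991), among them median centring, probe sets above the median, and leaving out dKO brain array 1 or 2 or dKO cord array 2 or 3. Tpx2, the activator of Aurora A on the spindle, differed by -0.27 (adjusted p = 0.0689) in the dKO and -0.44 (adjusted p = 0.00690) in WT. Cenpe, a kinetochore motor, had a level under 6.73 in all 4 groups and differed by -0.22 (adjusted p = 0.132) and -0.26 (adjusted p = 0.0823).

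The last pair are proteins of the chromosome itself and common markers of proliferation. Top2a, the topoisomerase that untangles sister chromatids, lay at 7.36, 7.73, 7.34 and 7.75 in dKO cords against 8.32, 8.35, 8.06 and 7.97 in dKO brains. In WT it lay at 7.63, 7.25, 7.19 and 7.21 in cords against 8.24, 8.45, 7.86 and 8.32 in brains. No cord array overlapped a brain array, and the differences were -0.63 (-0.94 to -0.32, adjusted p = 0.00179) in the dKO and -0.90 (-1.20 to -0.59, adjusted p = 0.000149) in WT. Mki67, which coats mitotic chromosomes, averaged 7.65 ± 0.17 in dKO cords and 8.08 ± 0.22 in dKO brains, and 7.60 ± 0.28 in WT cords and 8.07 ± 0.15 in WT brains, differences of -0.43 (adjusted p = 0.0177) and -0.47 (adjusted p = 0.0120). The dKO call of Mki67 was lost without dKO brain array 1 or 2 or dKO cord array 3, and over probe sets above the 75th percentile (highest adjusted p = 0.109).

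Counted by arrays, 25 of the 33 genes in the dKO and 21 in WT had every cord array below every brain array, against 33.4% and 18.1% of all tested genes, and 18 genes did so in both genotypes. Counted by single probe sets, 567 of the 696 had a lower mean in dKO cords than in dKO brains and 574 in WT cords than in WT brains. Lower means were not counted over all named probe sets, so these counts, and those for single genes below, have no background beside them. Probe sets with every cord array below every brain array numbered 318 in the dKO and 292 in WT, against 27.3% and 16.5% of all 303629 named probe sets. The reverse, every cord array above, held for 35 and 26 probe sets, against backgrounds of 16.5% and 11.9%. For Rrm1, 21 of 21 probe sets were lower in both genotypes, and for Mcm7 32 of 33. For Ccnb2 only 6 of 12 were lower in each genotype.

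The same direction was common among 96 other cell cycle genes, taken as lists by their textbook roles. In the dKO 52 of the 96 (54.2%) were called lower in the cord and 1 higher, and in WT 54 (56.2%) lower and 4 higher, with medians of -0.37 and -0.39. Of all tested genes, 22.4% were called higher in dKO cords and 21.4% in WT cords. Of 34 further S phase genes, 18 were called lower in the dKO and 23 in WT. They included Tk1, thymidine kinase, at -1.04 and -0.64, Prim1, a primase subunit, at -0.99 in each genotype, Cdc25a, the phosphatase that activates Cdk2, at -0.68 and -0.52, Uhrf1, which carries DNA methylation through replication, at -0.64 and -0.76, and Rfc3, a clamp loader subunit, at -0.97 and -0.75. Of 42 further mitosis genes, 25 were called lower in each genotype, among them Ect2, an activator of cytokinesis, at -0.81 and -1.0, Mad2l1, the checkpoint protein Mad2, at -0.82 and -0.96, and Ncapg, a condensin subunit, at -0.78 and -0.96.

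Of 20 G1 regulators and brakes, 9 (45%) were called lower in the dKO and 6 (30%) in WT, against 33.5% and 27.5% of all tested genes, so that the share in WT was near the background. Cdk4, the kinase partner of the D cyclins, differed by -0.99 in the dKO and -0.89 in WT, and Ccnd2, cyclin D2, by -1.73 and -1.21. The Cdk inhibitor Cdkn1b (p27), which restrains G1 kinases, was lower as well, at -1.29 and -1.22, as was Gadd45g, a growth arrest gene, at -0.87 and -0.71. The genes called higher in WT cords were Cit, citron kinase of cytokinesis, at 0.75, Cdc25b, a phosphatase that activates Cdk1, at 0.44, Btg2, an antiproliferative gene of neurogenic progenitors, at 0.40, and E2f2, an E2F factor, at 0.29. E2f2 was also called higher in dKO cords, at 0.38, and it turned to -0.09 in WT and -0.07 in the dKO after quantile normalization. Under that scaling Cit alone of the 4 remained called higher in WT cords.

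Markers of other cells also differed between the tissues, in both directions, and their part in the difference of the cell cycle genes was not tested. Of all tested genes, 33.5% were called lower and 22.4% higher in dKO cords, and 27.5% and 21.4% in WT cords. Some counts below lie near those shares, such as 25% of endothelial genes called lower in WT and 20% of erythroid genes called higher in the dKO. Of 12 neural progenitor genes, 9 were called lower in the cord in each genotype, and their mean level ranged from 8.66 to 8.78 in dKO cords against 9.14 to 9.36 in dKO brains and from 8.67 to 8.75 in WT cords against 9.18 to 9.39 in WT brains. Of 8 telencephalon genes, 7 were called lower in each, with a range of 6.65 to 6.94 in dKO cords against 7.91 to 8.94 in dKO brains, and of 6.53 to 6.82 in WT cords against 6.96 to 9.04 in WT brains. Skeletal muscle genes were called higher in the cord for 7 of 12 in the dKO and 12 of 12 in WT. Microglia and macrophage genes, of which 7 of 10 were lower in dKO cords than in dKO brains, ranged from 6.97 to 7.17 in those cords and from 7.43 to 7.59 in those brains. In WT 1 of the 10 was called, and it was higher. Genes of immature and mature neurons were called lower in the cord for 5 of 7 in each genotype, with 1 higher, and endothelial genes for 5 of 8 in the dKO and 2 of 8 in WT. Of 5 erythroid genes, 1 was called lower and 1 higher in the dKO and 2 higher in WT. Of 8 astrocyte genes, 2 were called lower and 1 higher in the dKO and 5 higher in WT. Of 6 oligodendrocyte precursor genes, 2 were called lower and 1 higher in the dKO, and 0 lower and 2 higher in WT. Without the 4 cord arrays rich in muscle genes, 27 of the 33 cell cycle genes were called lower in the dKO and 21 in WT, with medians of -0.59 and -0.64. Without brain array 3 of both genotypes, 29 were called lower in each genotype.

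The genes moved together between arrays of 1 group. The median level of all tested genes moved between arrays as well. On arrays 1 to 4 it was 7.47, 7.56, 7.37 and 7.43 in WT brains and 7.52, 7.54, 7.46 and 7.42 in dKO brains. In cords it was 7.58, 7.37, 7.43 and 7.32 in WT and 7.40, 7.40, 7.37 and 7.41 in the dKO. Whether the cell cycle genes moved beyond a shift of all genes was not tested. On WT brain array 3, the one low in telencephalon genes, 32 of the 33 genes lay below the group mean and 27 had their lowest value. In dKO brains, array 3 and array 4 each held the lowest value of 16 genes, and dKO brain array 1 lay above the group mean for all 33. In cords, 30 genes lay above the group mean on dKO array 2, 25 on dKO array 4 and 30 on WT array 1, arrays with high muscle genes, whereas on WT array 4, also high in muscle genes, 21 lay below it. The mean level of the 33 genes spanned 7.22 to 7.43 in dKO cords against 7.75 to 8.05 in dKO brains, and 7.21 to 7.41 in WT cords against 7.58 to 8.05 in WT brains.

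**Figure D4:**
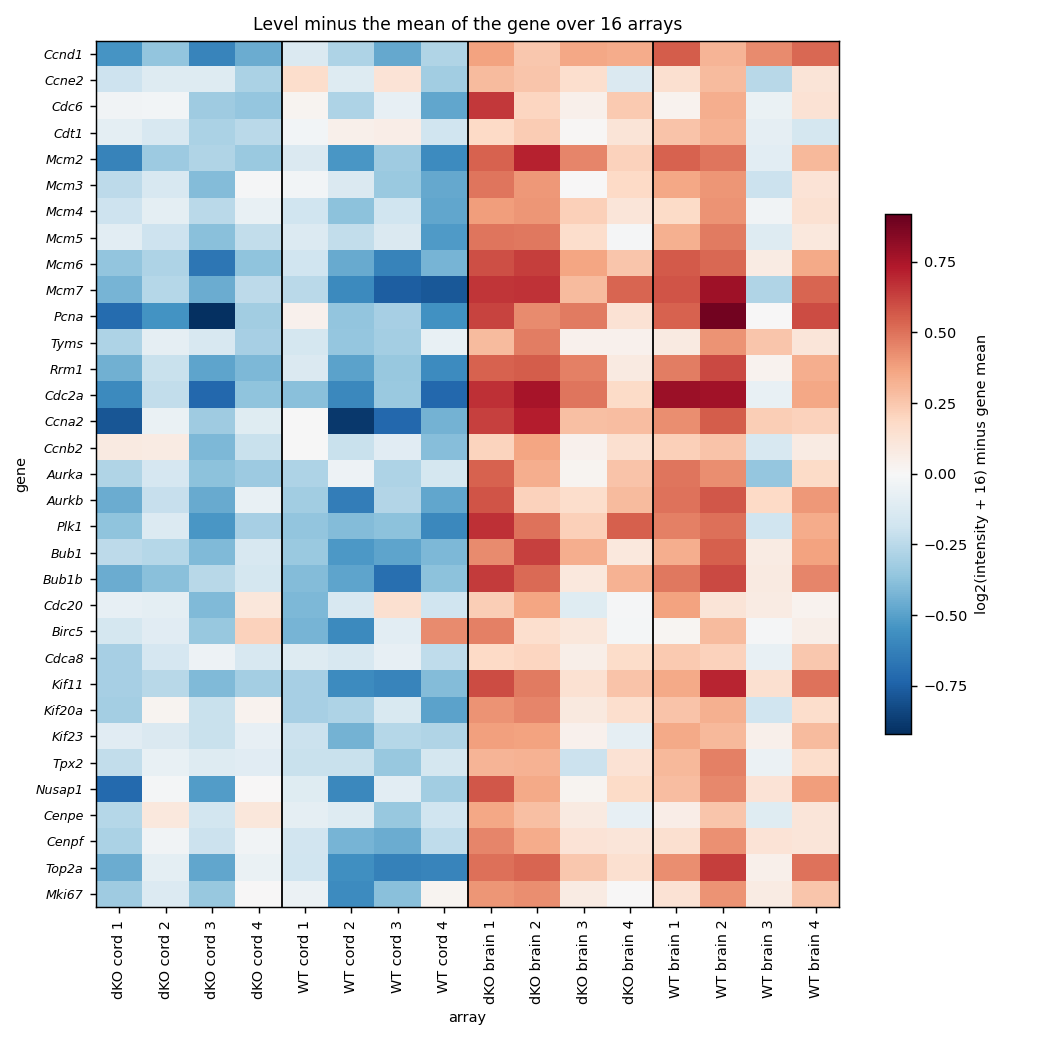
Level of each of the 33 genes on each of the 16 arrays minus its mean over the 16 arrays, in log2 units, with red above and blue below that mean. Columns are grouped as dKO cord, WT cord, dKO brain and WT brain; cords are mostly blue and brains mostly red, and WT brain array 3 is the palest brain column.

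None of the 33 genes passed the test between dKO and WT in either tissue. In the spinal cord 0 of 33 were called, against 3.24% of all tested genes, and 1 of the 33 had an unadjusted p under 0.05. In the brain 0 of 33 were called, against 0.19% of all tested genes, and 0 had an unadjusted p under 0.05. The median difference between dKO and WT was 0.05 in each tissue, against -0.02 over all genes in the cord and 0.01 in the brain. None of the 33 had its dKO arrays all above or all below its WT arrays in either tissue, against 9.18% of all tested genes in the cord and 3.64% in the brain. At the called shares of 3.24% and 0.19%, a count of 0 among 33 genes carries little information in either tissue. The 9.18% without overlap in the cord is a larger share, and whether 0 of 33 differs from it was not tested.

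**Figure D5:**
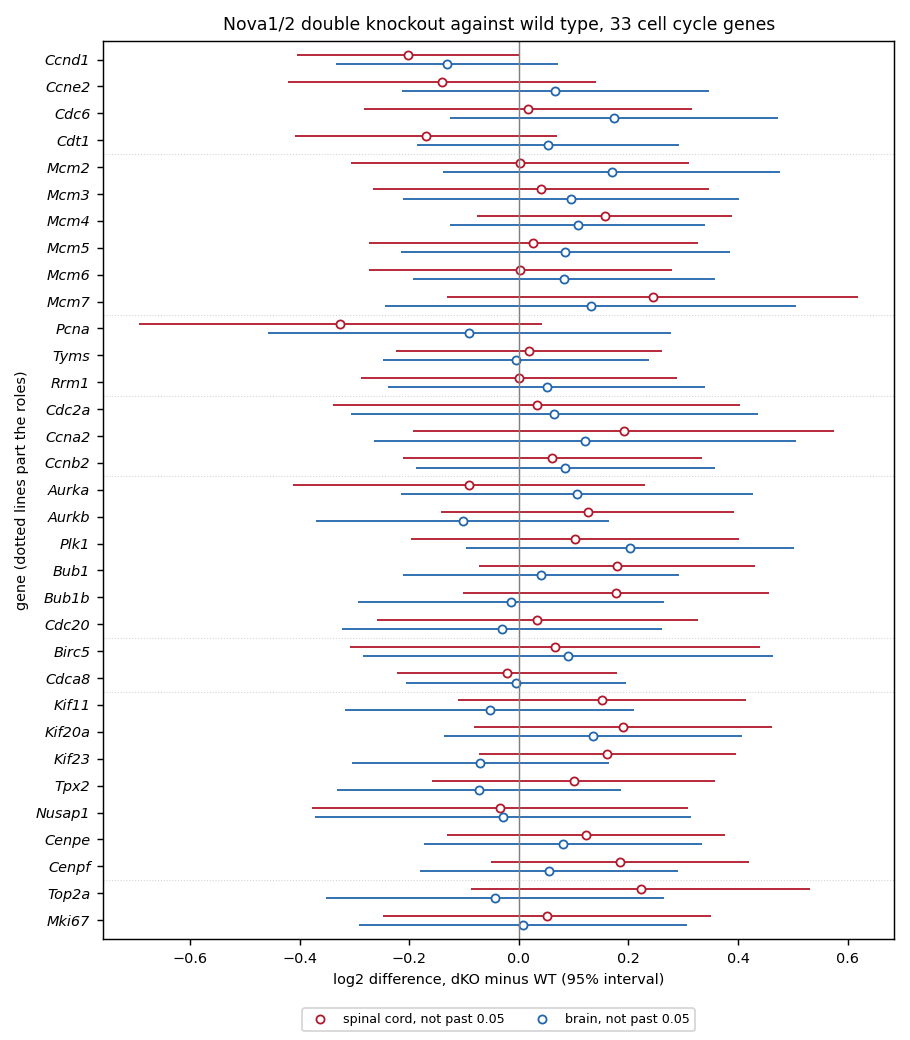
Difference between dKO and WT for the 33 tested genes, on the log2(intensity + 16) scale with 95% intervals, spinal cord above brain for each gene. All points are open, since none passed an adjusted p of 0.05; cord points lie between -0.33 for Pcna and 0.24 for Mcm7, and brain points between -0.13 for Ccnd1 and 0.20 for Plk1.

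The intervals give the size of change that these arrays leave possible. Over the 33 genes the 95% intervals of the dKO difference reached from -0.69 to 0.62 in the cord and from -0.46 to 0.51 in the brain. Ccnd1 was the nearest to the threshold, at 8.26 ± 0.11 in dKO cords and 8.47 ± 0.14 in WT cords, a difference of -0.20 (adjusted p = 0.307), and at 9.09 ± 0.05 in dKO brains and 9.22 ± 0.11 in WT brains, a difference of -0.13. Averaged over both tissues its difference was -0.17 (adjusted p = 0.275), the lowest adjusted p of the 33 genes in that comparison, in which 2.26% of all genes were called. Pcna had 9.02 ± 0.25 in dKO cords and 9.35 ± 0.25 in WT cords, a difference of -0.33 (-0.69 to 0.04, adjusted p = 0.378). Mcm7 had 8.76 ± 0.11 in dKO cords and 8.52 ± 0.25 in WT cords, a difference of 0.24 (-0.13 to 0.62, adjusted p = 0.546). Top2a had 7.55 ± 0.23 in dKO cords and 7.32 ± 0.21 in WT cords, and 8.18 ± 0.19 in dKO brains and 8.22 ± 0.25 in WT brains, with overlapping arrays in both tissues.

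The test of whether the effect of Nova loss differed between spinal cord and brain called none of the 33 genes, against 0.00514% of all genes, which is 1 gene. The difference of effects ranged from -0.24 for Pcna to 0.27 for Top2a, and its lowest adjusted p was 0.798. Since this is also the test of whether the tissue difference depends on genotype, none of the calls found in only 1 genotype, Cdc6, Cdt1 and Tpx2, was shown to differ between genotypes.

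Among the 96 further cell cycle genes, 3 (3.1%) were called by genotype in the spinal cord, all lower. That share was near the 2.64% of all tested genes called lower there. Over probe sets above the median, 2 of 93 measurable genes were called lower in the cord. In the brain 0 of the 96 were called, and 4 had an unadjusted p under 0.05. Cit lay at 7.97, 7.91, 7.99 and 7.86 in dKO cords against 8.91, 8.55, 8.46 and 8.61 in WT cords, a difference of -0.70 (adjusted p = 0.00229) with no overlap. Cdkn1a (p21), a Cdk inhibitor induced by p53, lay at 9.11, 8.85, 8.66 and 8.73 in dKO cords against 9.92, 9.23, 9.73 and 9.22 in WT cords, a difference of -0.69 (adjusted p = 0.0206). Cdkn2d (p19), an inhibitor of Cdk4 and Cdk6, lay at 7.48, 7.33, 7.23 and 7.55 in dKO cords against 7.98, 7.86, 7.97 and 7.94 in WT cords, a difference of -0.54 (adjusted p = 0.0478). All 3 had every dKO array below every WT array, and all 3 missed the threshold without the 4 muscle-rich arrays, at -0.53, -0.59 and -0.57 with adjusted p of 0.204, 0.296 and 0.357. Leaving those arrays out kept 2 cord arrays per genotype. Calls over all tested genes then fell from 631 to 65 in the cord, and from 439 to 142 in the average over both tissues. Whether muscle content or the smaller number of arrays lay behind the lost calls was not tested. Averaged over both tissues, Cit at -0.43 (adjusted p = 0.00620) and Cdkn1a at -0.47 (adjusted p = 0.0301) were lower in the dKO. Together they are 2.08% of the 96 genes, near the 1.82% of all tested genes called lower. Both missed the threshold without the muscle-rich arrays (adjusted p = 0.146 and 0.198). In the same average Cdc25a was higher in the dKO by 0.27 (adjusted p = 0.0414), against 0.437% of all tested genes called higher, with mean levels of 7.78 in dKO cords against 7.59 in WT cords and of 8.46 in dKO brains against 8.11 in WT brains. That call missed the threshold without the 4 muscle-rich cord arrays (0.27, adjusted p = 0.196) and without brain array 3 of both genotypes (0.28, adjusted p = 0.0501). In the spinal cord comparison 4 of 8 astrocyte genes, 3 of 6 oligodendrocyte precursor genes and 2 of 10 microglia and macrophage genes were called lower in the dKO, as was 1 of 5 erythroid genes. Called higher there were 2 of 7 genes of immature and mature neurons, 1 of 12 neural progenitor genes and 1 of 6 Schwann cell and dorsal root ganglion genes. Among all tested genes the share called higher in that comparison was 0.607%. The mean level of the astrocyte genes ranged from 9.49 to 9.90 in dKO cords against 9.92 to 10.47 in WT cords, that of the oligodendrocyte precursor genes from 8.10 to 8.15 against 8.39 to 8.63, and that of the microglia and macrophage genes from 6.97 to 7.17 against 7.27 to 7.70, and their part in these differences was not tested.

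Splicing inside these genes was read as the exon index, a probe set's level from which the gene's level on that array was subtracted, over 493 probe sets of 32 of the genes among 193126 probe sets in all. In the spinal cord 1 of the 493 passed an adjusted p of 0.05, against 0.388% of all probe sets, and 48 (9.74%) had an unadjusted p under 0.05, against 11.8% of all. It was probe set 5540029 of Mcm7, with an index higher in the dKO by 0.45 (adjusted p = 0.0483) and no overlap between dKO and WT arrays. The probe sets next in line, 4927791 of Kif23 at -0.58 (adjusted p = 0.0603) and 4519930 of Tyms at -0.69 (adjusted p = 0.0697), did not pass. In the brain 0 of the 493 passed, against 0.15% of all probe sets, and 12 (2.43%) had an unadjusted p under 0.05, against 3.3% of all. A changed exon index can come from an alternative exon, from another start or end of the transcript or from a sequence difference under the probes, and the position of the probe sets in their genes was not used here.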

How the data were processed

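Total RNA of 16 embryonic brains and spinal cords was hybridised to Affymetrix mouse exon arrays. Each deposited value is a probe set's intensity on a linear scale. The submitters' processing notes name Affymetrix Power Tools, PLIER and mouse build mm8. The sources used here give no version or setting and do not say whether both tissues were normalized together. The number of arrays limits the precision.

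Values were used as deposited, as log2(intensity + 16). A gene's level was the median of all probe sets with its symbol alone, of which at least 3 were required. Group means over all 16 arrays were fitted with limma 3.58.1 (lmFit and eBayes, R 4.3.3), with Benjamini-Hochberg adjustment over 19447 genes and a threshold of 0.05, for 6 comparisons. The exon index used probe sets above 6.73, the median of all, in genes with at least 5. Motif searches and figures used Python 3.11.15. Genes and lists were chosen with earlier results of these data known. The rule for named genes was all 35 members, up to 6 called genes of each further list by adjusted p, and Nova1 and Nova2; genes of the further lists named beyond it were chosen after their values were seen. Groups and replicate numbers come from the sample titles. In the brain, dKO and WT arrays of 1 number deviated together from their group means, with correlations of 0.12, 0.29, 0.27 and 0.19. Cord arrays and arrays of different tissues showed correlations from -0.13 to 0.02. The main fit used no pairing in any comparison, the brain included. Pairing by number entered only in the replicate block alternative, within each tissue for genotype and within each genotype for cord against brain. On simulated data for WT cord against WT brain, 49 of 100 genes with a true difference of 0.5 were called. With a difference of 1, 95 of 100 were called, and 4 unchanged genes were called among 19447 simulated. Only those genes were changed, and noise was drawn for each gene separately. The real comparison called 9506 genes, and the genes moved together between arrays, so these rates check the code and do not describe that comparison. Alternatives covered the probe set floor, summary, pseudocount, scaling, low genes, arrays in the fit, the replicate block, array weights and each array left out.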

Additional observations from a re-analysis of the deposited data

Results flagged for a closer look

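In 136 groups of 4 arrays, that is 34 genes in 4 groups, 4 groups held an array far from the other 3 by Dixon's test, which chance alone flags in about 1 in 20 groups. Plk1 was low on WT spinal cord array 4, at 7.31, against 7.51 to 7.54 on the other WT cord arrays. Top2a was high on WT spinal cord array 1, at 7.63, against 7.19 to 7.25, on the array with the highest muscle genes. Cdca8 was low on WT brain array 3, at 7.29, against 7.57 to 7.61, on the array with the lowest telencephalon genes of the brains. Cenpf was high on WT brain array 2, at 7.53, against 7.22 to 7.25. Since none of the 33 genes had its dKO arrays apart from its WT arrays in either tissue, none could be apart in opposite directions.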

How the results depend on the processing

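The count of cell cycle genes called by genotype was 0 under every alternative and with each array left out, in the cord, in the brain, for their mean and for the difference between tissues, and the lowest adjusted p reached was 0.0534, in the cord over probe sets above the 75th percentile. With the replicate block, which pairs arrays by number, the counts were 0 for brain and cord, and 28 of 33 in the dKO and 26 in WT for cord against brain. For cord against brain, the count called ranged from 16 to 33 in the dKO and from 19 to 33 in WT over 15 alternatives each, and from 23 to 29 and from 23 to 28 with each array left out. Over probe sets above the 75th percentile 16 of 23 measurable genes were called in the dKO and 19 of 23 in WT, all lower. Of all 10177 genes measurable there, 63.6% were called lower in the dKO and 54.5% in WT, so the dKO count lay near the background. The other cell cycle genes had fewer than 3 such probe sets. Of the 27 genes called in the dKO, 18 stayed called and lower under every alternative in which they were measurable, and 17 of 26 in WT. Among those in the dKO, Bub1, Cdc6 and Nusap1 were measurable under 21 of 23 alternatives, and Cdc2a and Mcm3 under 22. In WT, Bub1 was measurable under 21 and Cdc2a under 22. Over probe sets above the 75th percentile Cdca8 turned to 0.21 in the dKO and 0.047 in WT, and over probe sets above the median Tyms turned to 0.39 in the dKO; the cause was not tested. Leaving out the 4 muscle-rich cord arrays and both brain arrays of number 3 together, an alternative added after seeing the data, gave 29 called in the dKO and 26 in WT. The number of probe sets with a changed exon index stayed at 0 in the brain and 1 in the cord under both alternatives. Rrm2, Birc5, Ccne2 and Cenpe had means below the median of all probe sets in all 4 groups. Bub1, Bub1b, Cdc6 and Nusap1 lay below it in the cords of both genotypes, and Kif23 in WT cords. No background level was part of the values used, and brain and cord levels rest on a normalization whose handling of the tissues is unknown.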
